A study of Mus musculus with 8 samples.

Results

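The fatty acid desaturases of the FADS family and the elongases of polyunsaturated fatty acids (PUFAs) were measured as mRNA in the liver of *Agpat3* WT and *Agpat3* KO mice. The members were *Fads1*, *Fads2*, *Fads3*, *Fads6*, *Elovl2*, *Elovl4* and *Elovl5*, 7 of the 22911 genes named on the array, and they were taken as the probes whose transcript accession belongs to one of these symbols in a RefSeq gene table. They had 10 probes, of which 9 were kept for testing because their signal was well above background in every liver of one genotype or both. Livers came from 4 *Agpat3* WT and 4 *Agpat3* KO mice, all of them male, 10 weeks old and on a C57BL/6 background, with no other allele and no treatment named in the labels. The deletion was carried by the whole animal, so other tissues of the KO mice lacked the gene as well. AGPAT3 is an acyltransferase that places docosahexaenoic acid (DHA) into a precursor of phospholipids, and the comparison asked how its loss was accompanied by changes in the mRNAs of the enzymes that make PUFAs.

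Mammals take linoleic acid and alpha-linolenic acid from the diet and convert them, through alternating desaturation and elongation in the endoplasmic reticulum, into arachidonic acid, eicosapentaenoic acid and DHA. FADS2 catalyzes the first desaturation, FADS1 a later one that gives arachidonic acid and eicosapentaenoic acid, ELOVL5 the elongation between them, and ELOVL2 the elongation of longer PUFAs on the way to DHA, whose last step is a shortening in peroxisomes. The liver is a main site of this pathway, and its genes are known targets of the transcription factors SREBP1 and PPARα. *Fads3* encodes a desaturase of sphingoid bases, *Elovl4* an elongase of very long chains known from retina, brain and skin, and the substrate of the *Fads6* product is less clear.

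Each mouse was measured on 1 one-color array, and the 8 arrays shared 1 slide and 1 scan. WT arrays lay in one row of the slide and KO arrays in the other, so a position on the slide and the genotype cannot be told apart. A level is given as log2 of the processed signal relative to that array's own 75th percentile, which was between 261 and 309 intensity units, and levels of different probes are not compared. Arrays correlated at r = 0.988 to 0.996 within WT, 0.990 to 0.993 within KO and 0.985 to 0.992 across genotypes. The targeted gene matched the labels. *Agpat3* was between 5.65 and 5.88 in the WT livers and between -0.58 and 0.02 in the KO livers on its brighter probe, a log2 fold change of -6.12 ± 0.14 (SE, n = 4 and 4; limma adjusted p = 4.46e-07). In whole liver, fewer cells of a type and less RNA per cell cannot be told apart. All 9 hepatocyte markers with a probe were above background, and of 45 marker genes tested over 8 lists of liver cell types, adipocytes, lymphocytes and pancreatic acinar cells, 0 were called higher and 1 was called lower by limma (7 had an unadjusted p under 0.05, and an unpaired t test called 1 gene). Of the 7 markers with an unadjusted p under 0.05, *Marco*, *Hnf4a*, *Pdgfrb*, *Lyve1*, *Sox9* and *Cela1* were lower in KO, and *Lrat* was higher. The gene called lower was *Marco*, a scavenger receptor of Kupffer cells, at -1.22 ± 0.25 (SE; adjusted p = 0.0983; 0.754% of all genes were called lower). The call did not hold without WT mouse 3 or KO mouse 2 (adjusted p up to 0.213), nor with dim probes kept. Summed on a linear scale, the signal of the 8 Kupffer cell markers was 92.3 to 151 in WT and 78.1 to 129 in KO, relative to the 75th percentile. The brightest probes weigh most in this sum.

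The mRNAs of the PUFA pathway were at a higher level in all 4 *Agpat3* KO livers than in any WT liver. Those of *Fads3* and *Fads6*, the members outside the pathway that could be tested, overlapped between the genotypes. *Fads1*, *Fads2* and *Elovl5* were called higher, at log2 fold changes of 0.74 to 1.02, and *Elovl2* was at 0.53, below the 1.5-fold threshold. *Fads3* and *Fads6* were at -0.00 and 0.01. The *Elovl4* signal did not clear the background in any liver, so among the members no elongase outside the pathway could be compared. A gene was called at a fold change over 1.5 and a limma adjusted p under 0.2, Benjamini-Hochberg over 29069 probes. Thus 3 of 4 pathway genes and 0 of 2 tested genes outside it were called higher, against 1.01% of 14067 genes read from 1 probe each (on the level of probes 6 of 7, against 0.939%), and an unpaired t test gave the same counts with 0 unadjusted p under 0.05 outside the pathway. All 4 pathway genes had every KO liver above every WT liver (3.84% of all genes) and an adjusted p under 0.05 (0.547% of all genes, with no minimum fold). The median change of all genes was -0.03, with quartiles of -0.14 and 0.08.

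**Figure D1:**
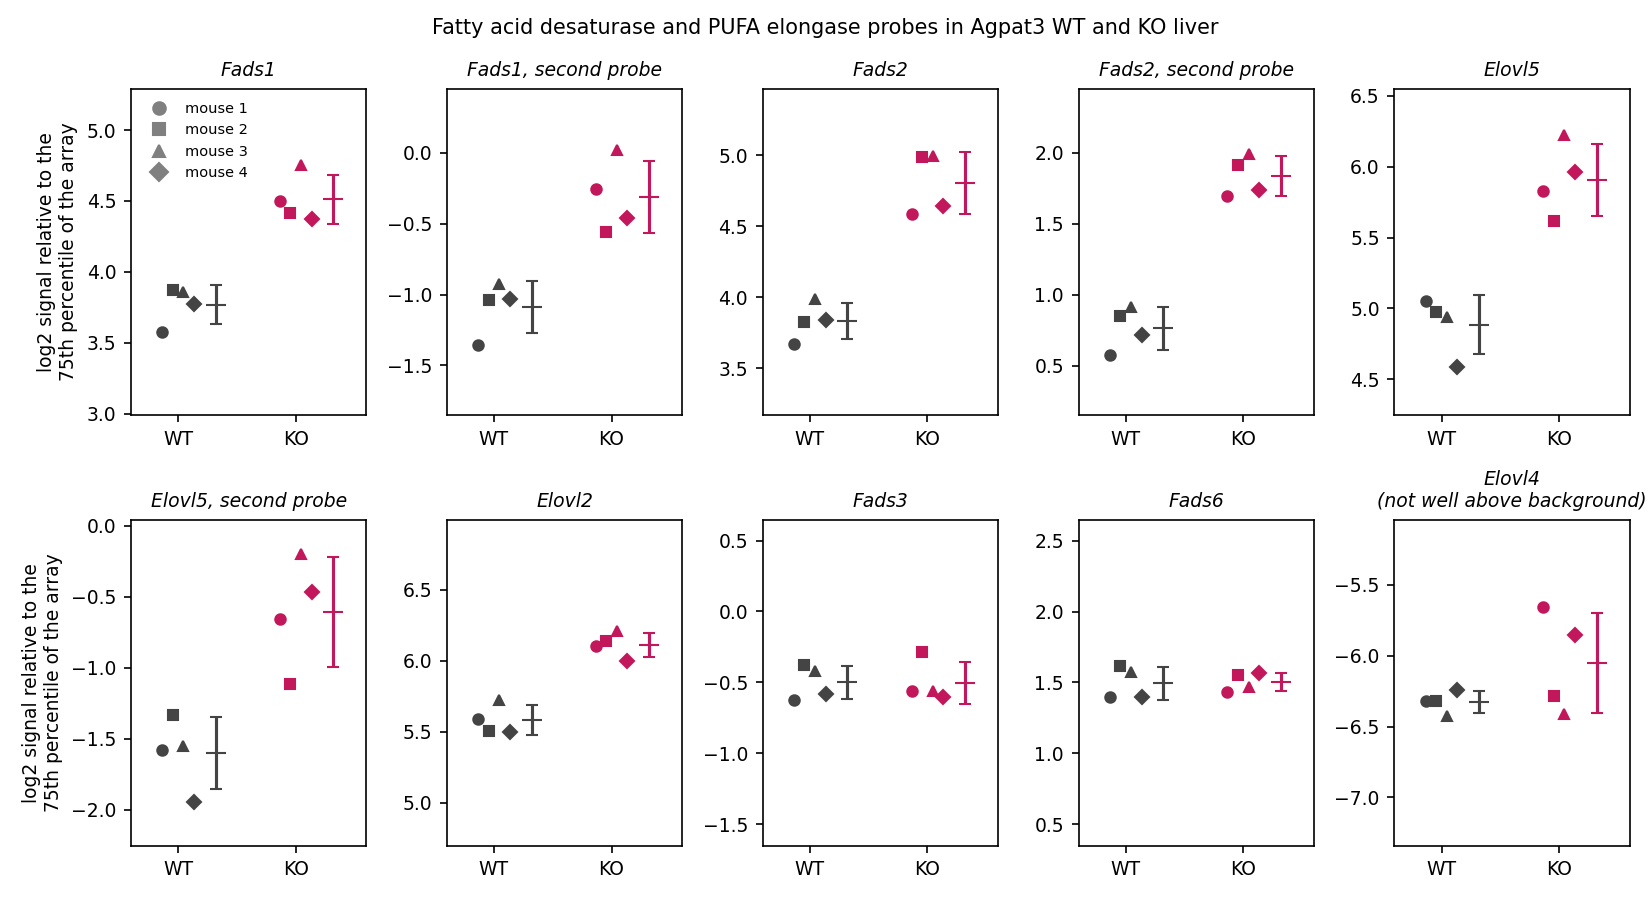
Level of each of the 10 member probes in every liver, as log2 signal over the array's 75th percentile (y axis, the same span of 2.3 units in each panel), by genotype (x axis, 4 WT and 4 KO mice). Points are single mice with 1 symbol per replicate number, which pairs no mice, and the line beside them is the mean with its SD. The KO points lie above all WT points for *Fads1*, *Fads2*, *Elovl5* and *Elovl2*, and overlap them for *Fads3* and *Fads6*. The *Elovl4* points did not clear the background in any liver.

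*Fads2* (NM_019699), the desaturase of the first and rate-limiting step, was 3.67, 3.83, 3.99 and 3.84 in WT mice 1 to 4 and 4.59, 4.99, 4.998 and 4.65 in KO mice 1 to 4. The lowest KO liver lay 0.60 above the highest WT liver. The log2 fold change was 0.97 ± 0.12 (SE; 95% interval 0.70 to 1.25), a 1.96-fold higher level, with a limma adjusted p of 0.0199 and an exact two-sided permutation p of 0.0286, which is the smallest that 70 assignments of 4 and 4 mice allow. A second probe for the same transcript was 0.57, 0.85, 0.91 and 0.72 in WT and 1.70, 1.92, 2.00 and 1.74 in KO. Its groups were even farther apart than those of the first probe, by 0.79 between the nearest livers. The change on this probe was 1.07 ± 0.10 (SE; adjusted p = 0.00688), the lowest adjusted p among the member probes.

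*Fads1* (NM_146094), which makes the last double bond of arachidonic acid and eicosapentaenoic acid, was 3.57, 3.87, 3.85 and 3.77 in WT livers and 4.50, 4.42, 4.76 and 4.37 in KO livers. All KO livers lay above all WT livers, by 0.50 between the nearest livers, with KO mouse 3 highest. The change was 0.74 ± 0.11 (SE; 95% interval 0.49 to 0.99), or 1.67-fold, with an adjusted p of 0.0355. Its second probe, a dim one, was -1.35, -1.04, -0.93 and -1.03 in WT and -0.25, -0.56, 0.02 and -0.46 in KO. The groups did not overlap there either, and the change was 0.77 ± 0.14 (SE; adjusted p = 0.0765).

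*Elovl5* (NM_134255), the elongase that follows FADS2, was 5.05, 4.97, 4.94 and 4.59 in WT livers and 5.83, 5.62, 6.22 and 5.96 in KO livers. WT mouse 4 was the lowest of its group and KO mouse 3 the highest of the other, and the groups were 0.57 apart at the nearest livers. The change was 1.02 ± 0.15 (SE; 95% interval 0.68 to 1.36), or 2.03-fold, with an adjusted p of 0.0355. A second probe, designed to a predicted transcript of the gene (XM_011242807), was -1.58, -1.33, -1.55 and -1.95 in WT and -0.65, -1.11, -0.20 and -0.47 in KO. Here the nearest livers were 0.22 apart, and the change was 0.99 ± 0.20 (SE; adjusted p = 0.0969). Without WT mouse 3 this second probe was not called (adjusted p = 0.217).

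*Elovl2* (NM_019423), the elongase needed for DHA but not for arachidonic acid, was 5.59, 5.51, 5.73 and 5.50 in WT livers and 6.10, 6.14, 6.21 and 6.00 in KO livers. The KO livers were all above the WT livers, with 0.27 between the nearest, and the spread within each genotype was small (SD 0.11 and 0.09). The change was 0.53 ± 0.08 (SE; 95% interval 0.35 to 0.71), or 1.44-fold, with an adjusted p of 0.0409. It was past the adjusted p used here and not past the fold, and 2.48% of the probes had a larger change, whereas 1.17% did for *Fads1*, 0.588% for *Fads2*, and 0.506% in the case of *Elovl5*.

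The FADS genes outside the pathway were measured well above background on all 8 arrays. *Fads3* (NM_021890), the desaturase of sphingoid bases, was -0.62, -0.38, -0.42 and -0.58 in WT and -0.56, -0.28, -0.56 and -0.60 in KO livers. The groups lay across each other, and the change was -0.00 ± 0.10 (SE; 95% interval -0.22 to 0.22; adjusted p = 0.996). *Fads6* (NM_178035) was 1.40, 1.62, 1.57 and 1.39 in WT and 1.43, 1.55, 1.47 and 1.56 in KO livers. These groups overlapped as well, with a change of 0.01 ± 0.08 (SE; 95% interval -0.17 to 0.19; adjusted p = 0.976). Both intervals end below the changes measured for the pathway genes, and their signs turned with the scaling. *Elovl4* (NM_148941) was between -6.43 and -5.66 on the 8 arrays, under the lowest signal well above background of every array, and was not tested.

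**Figure D2:**
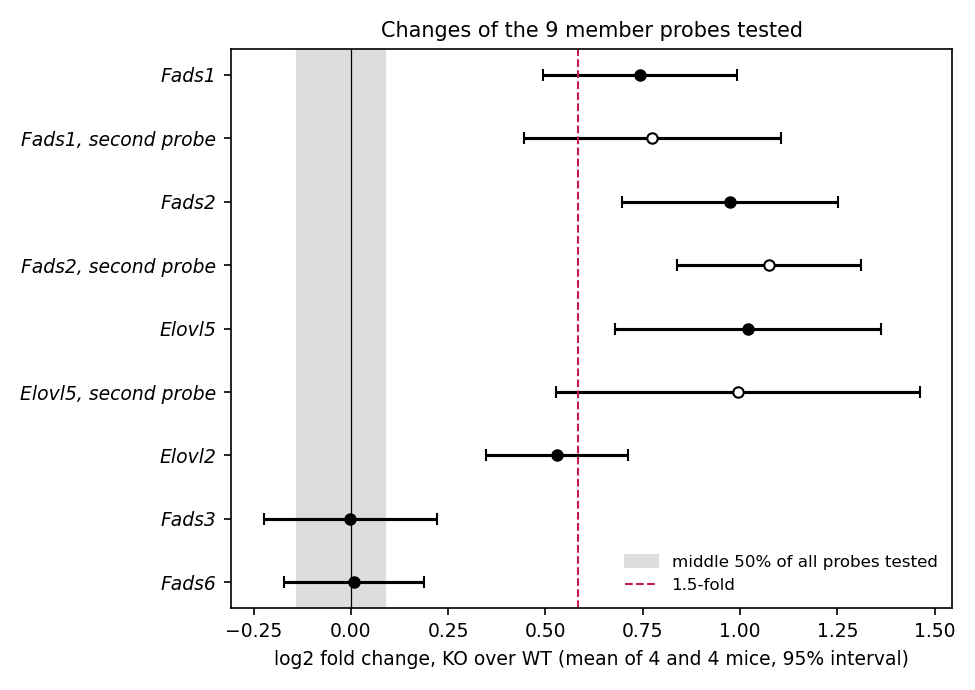
Log2 fold change of KO over WT (x axis) for the 9 member probes tested (y axis), as the mean of 4 and 4 mice with the 95% interval of limma; filled points are the brightest probe of a gene and open points the second probe. The gray band spans the middle 50% of all probes tested (-0.14 to 0.09) and the dashed line is a 1.5-fold change; the 7 pathway probes lie at 0.53 to 1.07 and *Fads3* and *Fads6* within the band.

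Differences of change between members were tested within arrays, where they do not depend on the scaling of an array. For each mouse the log2 level of one gene was subtracted from that of the other, and the genotypes were compared by an exact two-sided permutation test, with Benjamini-Hochberg adjustment over the 10 pairs that could be tested of 12; both pairs with *Elovl4* could not. *Fads2* minus *Fads3* was 4.29, 4.21, 4.41 and 4.42 in WT mice and 5.15, 5.28, 5.56 and 5.25 in KO mice, so that the change of *Fads2* was larger by 0.98 (95% interval 0.73 to 1.22). *Fads2* minus *Fads6* was 2.28, 2.21, 2.41 and 2.45 in WT and 3.15, 3.44, 3.53 and 3.08 in KO, a difference of 0.97 (0.67 to 1.26). In each of these comparisons no KO mouse overlapped a WT mouse. *Fads1* minus *Fads3* was 4.19, 4.25, 4.28 and 4.35 in WT and 5.07, 4.70, 5.32 and 4.97 in KO, a difference of 0.74 (0.42 to 1.07). *Fads1* minus *Fads6* was 2.18, 2.26, 2.28 and 2.37 in WT and 3.07, 2.87, 3.29 and 2.81 in KO, a difference of 0.73 (0.45 to 1.02). The genotypes were separated in all 4 pairs, each with an exact permutation p of 0.0286 and an adjusted p of 0.0476. As 0.0286 is the smallest p possible, the adjusted p depends on how many of the 10 pairs reach it. The smallest p with 1 mouse fewer is 0.0571, so no pair can pass without a mouse, and after quantile normalization the adjusted p of the 4 pairs was 0.0571.

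Among the pathway enzymes themselves, 2 of 6 pairs differed in their change. *Fads2* changed by 0.44 more than *Elovl2* (95% interval 0.20 to 0.69) and *Elovl5* by 0.49 more (0.11 to 0.87), both with an exact permutation p of 0.0286 and an adjusted p of 0.0476. Neither passed after quantile normalization (adjusted p = 0.0571 and 0.0952), and that of *Elovl5* was also not past it with the probes of a gene averaged (adjusted p = 0.122). *Fads1* minus *Fads2* gave -0.23 (-0.50 to 0.04; exact permutation test, adjusted p = 0.107), which became -0.27 with an adjusted p of 0.0476 when the probes of a gene were averaged. *Fads1* minus *Elovl5* gave -0.28 (-0.67 to 0.11; adjusted p = 0.190), *Fads1* minus *Elovl2* 0.21 (-0.03 to 0.46; adjusted p = 0.0816) and *Fads2* minus *Elovl5* -0.05 (-0.56 to 0.46; adjusted p = 0.83), all by the exact permutation test. These intervals are wide enough to hold both no difference and one of 0.4 or more on the log2 scale.

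**Figure D3:**
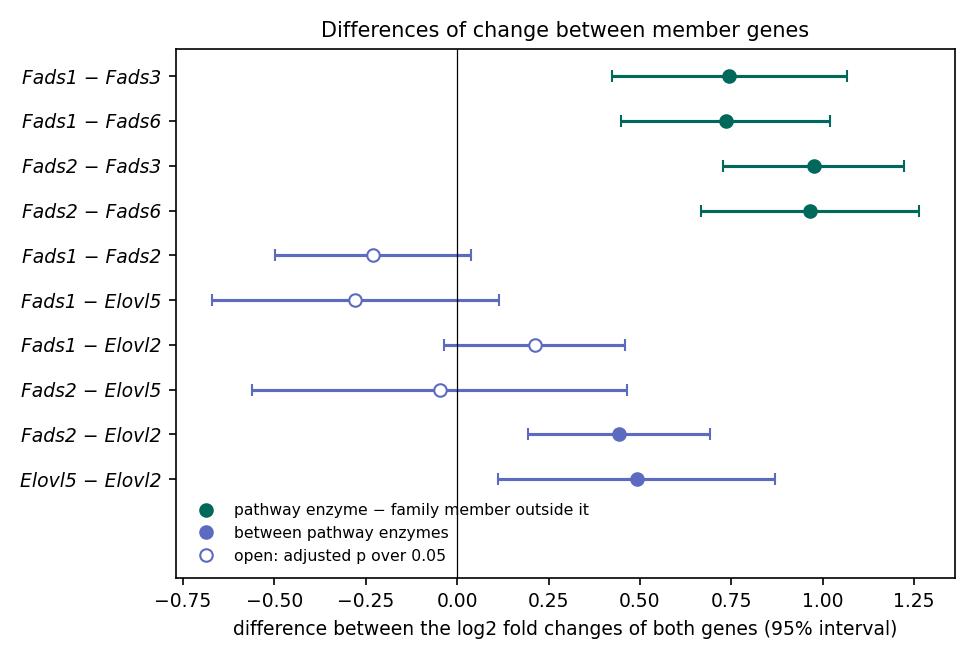
Difference between the log2 fold changes of 2 member genes (x axis, with its 95% interval) for the 10 pairs tested (y axis, first gene minus second gene); green marks a pathway enzyme against a FADS gene outside the pathway, blue a pair of pathway enzymes, and open points an adjusted p over 0.05 in the exact permutation test. The 4 green pairs lie between 0.73 and 0.98, while 4 of the 6 blue pairs have intervals that cross 0.

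The elongase family was also read against its other members, a comparison chosen after *Elovl4* was seen to be at background. *Elovl1*, *Elovl3*, *Elovl6* and *Elovl7* elongate saturated and monounsaturated chains, and 0 of these 4 were called by limma (2 had an unadjusted p under 0.05, and the unpaired t test called 0). Over all genes 1.01% were called higher and 0.754% lower. *Elovl6*, which elongates palmitate, was 4.05, 3.54, 4.38 and 3.19 in WT and 4.70, 4.84, 4.93 and 4.15 in KO, a change of 0.86 ± 0.27 (SE; adjusted p = 0.237). Its WT livers spread over more than 1 log2 unit and reached into the KO range, and it was called after normexp background correction (0.90; adjusted p = 0.173) and with the replicate number, which is also the column on the slide, as a block (0.86; adjusted p = 0.113). *Elovl3* was 6.24, 6.14, 5.60 and 6.00 in WT and 5.70, 5.005, 3.96 and 5.41 in KO, a change of -0.98 ± 0.35 (SE; adjusted p = 0.280). KO mouse 3, the highest of its group for the pathway enzymes, was the lowest for *Elovl3*, whose change was -0.62 without this mouse, and with the replicate block *Elovl3* was called lower (adjusted p = 0.153). *Elovl1* was at 0.17 ± 0.11 (SE; adjusted p = 0.556) and *Elovl7*, above background on 7 of 8 arrays, at -0.16 ± 0.24 (SE; adjusted p = 0.828). The change of *Elovl5* minus that of *Elovl1* was 0.85 (95% interval 0.47 to 1.22) and minus that of *Elovl3* 2.00 (0.79 to 3.21), and that of *Elovl2* minus that of *Elovl3* was 1.51 (0.40 to 2.62), each with an exact permutation p of 0.0286. Over 6 pairs their adjusted p was 0.0571, so none passed 0.05. As 0.0286 is the smallest p possible, passing depends on how many pairs of the set reach it. Without KO mouse 3 the differences from *Elovl3* were 1.54 and 1.12. Against *Elovl6* the differences were 0.16 for *Elovl5* (-0.57 to 0.89; exact permutation test, adjusted p = 0.629) and -0.33 for *Elovl2* (-0.95 to 0.29; adjusted p = 0.240), and *Elovl2* against *Elovl1* gave 0.36 (0.10 to 0.61; adjusted p = 0.0857).

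Within a genotype the pathway genes differed between mice by less than they did between genotypes. KO mouse 3 had the highest level of the 4 KO mice on all 7 pathway probes, and WT mouse 3 the highest of the WT mice on 4 of them. Without KO mouse 3 the changes were 0.66 for *Fads1*, 0.91 for *Fads2*, 0.92 for *Elovl5* and 0.50 for *Elovl2*, with limma adjusted p-values of 0.0538, 0.0508, 0.0614 and 0.0850. The deviations of single mice from the mean of their genotype were alike on both probes of a gene, with r = 0.94 for *Fads1*, 0.91 for *Fads2* and 0.93 for *Elovl5* over 8 mice. Between genes they were less alike. Over the 15 pairs of the 6 measured members, Pearson's r of these deviations lay between -0.34 and 0.68, and 0 pairs passed an exact permutation test of the mice within each genotype (0 pairs at an unadjusted p under 0.05; lowest adjusted p = 0.664 for r and 0.625 for Spearman's rho). *Fads1* and *Fads2*, which lie next to each other, had r = 0.58 (exact permutation p = 0.177) and rho = 0.55 (p = 0.198), and r was 0.25 without WT mouse 1 and KO mouse 3. *Fads2* and *Elovl2* had r = 0.61 (exact permutation p = 0.139) and rho = 0.64 (p = 0.122), with r = 0.62 without KO mice 1 and 3. *Fads2* and *Elovl5*, with the most similar changes, had r = -0.02 (exact permutation p = 0.957) and rho = 0.07 (p = 0.896), and r = -0.56 without KO mice 1 and 3. The highest value was that of *Fads3* and *Fads6*, r = 0.68 (exact permutation p = 0.139) and rho = 0.60 (p = 0.198), and it was 0.61 without WT mouse 2 and KO mouse 2. With 4 mice a genotype, only large correlations could have passed.

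**Figure D4:**
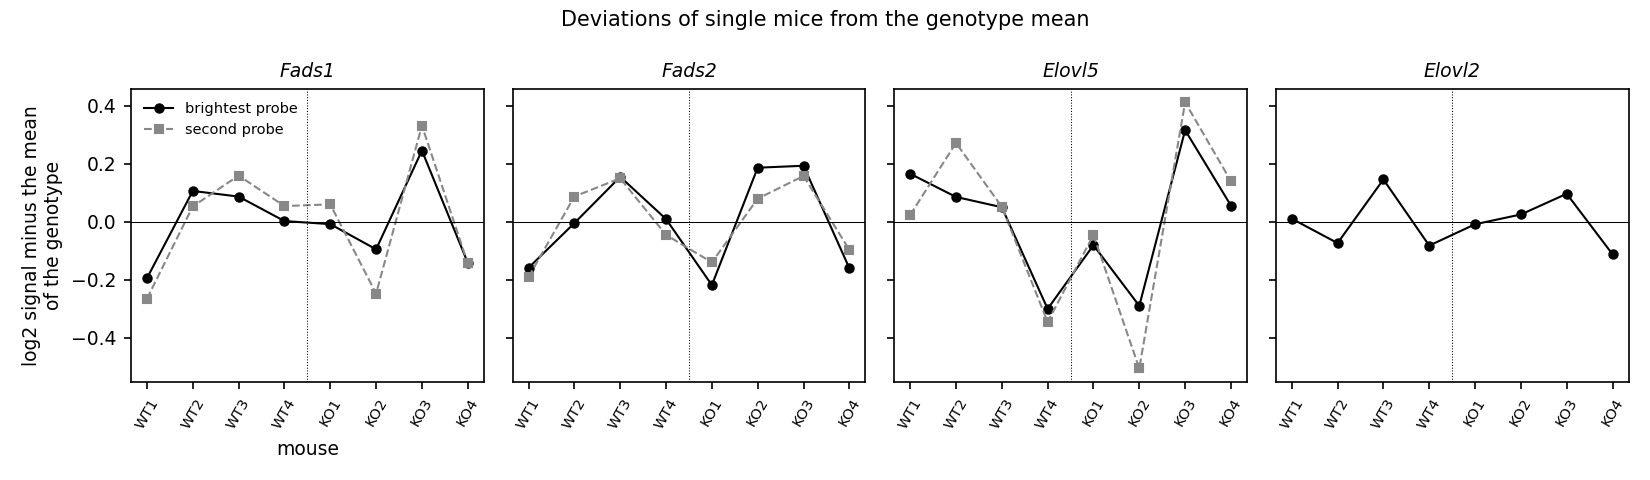
Log2 level of each mouse minus the mean of its genotype (y axis) for the 4 pathway genes, with the 4 WT and 4 KO mice on the x axis; black circles are the brightest probe and gray squares the second probe, and *Elovl2* has 1 probe. Both probes of a gene follow each other (r = 0.91 to 0.94), and KO mouse 3 is the highest KO point in all panels.

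*Fads3*, *Fads2* and *Fads1* lie next to each other on chromosome 19, separated in the RefSeq table by the noncoding RNA gene *Gm29917* and the pseudogene *Gm50359*, neither of which had a probe. The cluster had 3 protein-coding genes before it, *Fth1*, *Best1* and *Rab3il1*, and *Mir6993*, *Fen1* and *Tmem258* after it. None of the 4 neighbors that could be tested was called, where 1.01% of all genes were called higher. *Fth1*, the ferritin heavy chain, was at -0.12 ± 0.06 (SE; adjusted p = 0.434), *Rab3il1* at -0.04 ± 0.14 (adjusted p = 0.918), *Fen1*, a flap endonuclease of DNA replication, at 0.19 ± 0.19 (adjusted p = 0.712) and *Tmem258* at 0.01 ± 0.08 (adjusted p = 0.981). *Best1* was well above background on 1 of 8 arrays. The higher levels within this stretch were thus measured for *Fads2* and *Fads1* and not for *Fads3* or the tested neighbors.

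Promoter sequences are shown for *Fads2*, *Elovl5* and *Elovl2*, which were at a higher level in all KO livers, and for *Fads3*, which was not. Each runs 5′ to 3′ along the strand of the gene, from 250 bases before to 30 bases after the start in RefSeq (GRCm38.p6), with chr19:10101474-10101753 (minus strand) for *Fads2*, chr9:77917115-77917394 (plus strand) for *Elovl5*, chr13:41220374-41220653 (minus strand) for the first of 2 windows of *Elovl2* and chr19:10041298-10041577 (plus strand) for *Fads3*. Capitals mark matches, on either strand, to the letters CACGTG of an E-box, to CCAAT, the box of that name, or to the letters GGGCGG, a GC box read by factors of the SP family.
Fads2: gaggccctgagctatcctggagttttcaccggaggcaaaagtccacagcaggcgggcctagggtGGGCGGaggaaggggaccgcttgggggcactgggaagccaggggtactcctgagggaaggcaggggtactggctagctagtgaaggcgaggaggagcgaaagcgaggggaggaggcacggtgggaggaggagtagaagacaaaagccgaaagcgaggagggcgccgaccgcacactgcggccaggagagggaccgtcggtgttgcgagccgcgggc
Elovl5: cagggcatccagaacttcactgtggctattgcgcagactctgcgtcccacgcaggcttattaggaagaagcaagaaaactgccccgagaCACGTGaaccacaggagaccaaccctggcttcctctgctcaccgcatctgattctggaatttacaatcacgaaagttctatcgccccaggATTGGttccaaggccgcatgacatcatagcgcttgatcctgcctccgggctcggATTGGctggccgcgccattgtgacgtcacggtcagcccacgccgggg
Elovl2: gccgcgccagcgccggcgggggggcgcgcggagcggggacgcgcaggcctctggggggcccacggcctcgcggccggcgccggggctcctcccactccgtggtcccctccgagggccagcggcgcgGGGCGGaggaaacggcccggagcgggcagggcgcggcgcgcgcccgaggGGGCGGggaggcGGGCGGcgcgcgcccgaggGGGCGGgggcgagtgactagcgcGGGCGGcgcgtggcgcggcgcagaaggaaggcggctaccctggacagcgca
Fads3: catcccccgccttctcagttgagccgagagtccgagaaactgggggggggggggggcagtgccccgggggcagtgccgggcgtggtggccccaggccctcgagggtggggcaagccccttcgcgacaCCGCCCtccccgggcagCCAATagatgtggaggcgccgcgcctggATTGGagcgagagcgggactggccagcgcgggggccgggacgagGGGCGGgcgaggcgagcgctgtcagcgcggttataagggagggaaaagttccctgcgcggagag
The *Fads2* window held a GC box at position -186 from the start and had no E-box or CCAAT box. The *Elovl5* window held an E-box at position -161 and 2 CCAAT boxes on the opposite strand, and the first *Elovl2* window held 5 GC boxes, while its second held none. *Fads3* held 2 CCAAT boxes and 2 GC boxes, *Fads6* 1 GC box, and *Elovl4* an E-box, a CCAAT box and 2 overlapping GC boxes. A sterol regulatory element (TCACNCCAC) and a direct repeat read by PPARα (AGGTCA, 1 base and AGGTCA again) were searched for as well on both strands, and these letters were in none of the windows of the 6 members the table lists. *Fads1* has no entry there and was not searched. Over 32851 windows of the same length in the table, a GC box was held by 34.7%, a CCAAT box by 36.1%, an E-box by 6.79%, the sterol regulatory element by 1.18% and the direct repeat by 0.0365%. Only exact letters were scored, so a site that differs by a single base would have been missed. The sterol regulatory element and the direct repeat are rare in this form, so their absence from the member windows was likely beforehand. Whether these promoters hold sites for SREBP1 or PPARα cannot be read from this search.

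The other genes of PUFA metabolism were read from lists written by hand, each gene from its brightest probe. Over all genes 1.01% were called higher and 0.754% lower, so 0 called in a short list is near that share. The partners of the elongases, which carry out the reduction and dehydration steps of the elongation cycle, stayed within 0.13 of no change. Of 6 partners 0 were called (0 with an unadjusted p under 0.05, 0 by the unpaired t test), their median was 0.01, with the ketoreductase *Hsd17b12* the farthest from 0 at -0.13 ± 0.08 (SE; adjusted p = 0.543). The electron donors of the desaturases, cytochrome b5 and its reductases, had a median of 0.07, and 0 of 5 were called (1 with an unadjusted p under 0.05, 0 by the unpaired t test). The largest change was 0.27 ± 0.12 for *Cyb5b* (SE; adjusted p = 0.380). The gene with an unadjusted p under 0.05 was *Cyb5r3*, at 0.25 ± 0.08 (SE; limma adjusted p = 0.259). For *Cyb5r3* and *Cyb5r4* every KO liver lay above every WT liver (3.84% of all genes). The changes of the 4 desaturases and elongases of the pathway, 0.53 to 1.02, lay above those of all 11 partner enzymes, a difference that was not tested.

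Among desaturases of other substrates, 3 of 6 tested were called higher, with a median of 0.55. These were the stearoyl-CoA desaturases, which make monounsaturated fatty acids. *Scd1* changed by 0.97 ± 0.19 (SE; adjusted p = 0.0905), *Scd2* by 0.92 ± 0.18 (adjusted p = 0.0837) and *Scd3* by 1.37 ± 0.27 (adjusted p = 0.0841). The 3 genes have similar sequences, so that their probes may share RNA. Of the 3, 0 were called without WT mouse 3 or with dim probes kept, and 2 without WT mouse 2. *Scd4*, at 0.18 ± 0.07 (SE; adjusted p = 0.351), and the sphingolipid desaturases *Degs1*, at 0.06 ± 0.07 (adjusted p = 0.751), and *Degs2*, at -0.35 ± 0.15 (adjusted p = 0.382), were not called, and *Fads2b* did not clear the background in any liver.

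In peroxisomes, where a longer precursor is shortened to DHA, 1 of 9 genes was called higher and the median was 0.01. It was *Abcd2*, a transporter of very long acyl chains into peroxisomes, at 1.88 ± 0.40 (SE; adjusted p = 0.106), which was above background on 2 of 4 WT arrays and on all KO arrays and so was tested only because of its KO signal. Of the 8 genes above background on all arrays, 0 were called by limma (1 had an unadjusted p under 0.05, and the unpaired t test called 0). *Abcd2* was not called after normexp correction, where its change was 0.58, nor without WT mouse 2 or WT mouse 3. Nor was it called with dim probes kept (limma adjusted p = 0.252) or by the unpaired t test (adjusted p = 0.204). Of 8 genes that activate or transport PUFAs or place them into phospholipids, *Mfsd2a*, a transporter of DHA-containing lysophosphatidylcholine, was called higher at 2.11 ± 0.43 (SE; limma adjusted p = 0.0973), and *Agpat3* itself was called lower. *Mfsd2a* was not called without WT mouse 2 (adjusted p = 0.203) or with dim probes kept (0.227). The acyl-CoA synthetase *Acsl3* was at 0.97 ± 0.30 (SE; adjusted p = 0.231), and was called after normexp (adjusted p = 0.148), with the replicate block (0.129) and without WT mouse 4 (0.173), and *Lpcat3*, which places arachidonic acid into phospholipids, at 0.35 ± 0.13 (adjusted p = 0.295).

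Of 13 transcriptional regulators of the pathway, *Srebf1*, the gene of SREBP1, was called higher. It was 6.08, 6.72, 6.63 and 6.14 in WT and 6.89, 6.87, 7.42 and 7.47 in KO livers. The nearest livers of the groups were close to each other, and the change was 0.77 ± 0.20 (SE; adjusted p = 0.168). The call was lost when any single mouse was left out (adjusted p up to 0.284), with dim probes kept (0.377) and by the unpaired t test. *Insig1*, which retains SREBP precursors in the endoplasmic reticulum, had the largest change of the list, 1.12 ± 0.33 (SE; adjusted p = 0.207), with every KO liver above every WT liver (3.84% of all genes). It was not called, but was called after normexp (adjusted p = 0.162), quantile normalization (0.191), the trend and robust option (0.187) and the replicate block (0.149), and without WT mouse 1 (0.78; 0.183). The genotypes did not overlap for 5 of the 13 regulators. These were *Srebf1* and *Insig1*, higher in KO, and *Mbtps1*, *Mbtps2* and *Rxra*, lower in KO and not called. The median of the regulators was 0.04, with *Srebf2* at -0.20 ± 0.16 (SE; adjusted p = 0.657) and *Ppara* at -0.09 ± 0.14 (adjusted p = 0.845). Of 12 further targets of SREBP1 in de novo lipogenesis, 11 were called higher, with a median of 1.19, among them *Fasn*, fatty acid synthase, at 1.69 ± 0.13 (SE; adjusted p = 0.00206) and *Acly*, ATP citrate lyase, at 1.03 ± 0.07 (adjusted p = 0.00206). *Pnpla3*, one of the 11, was above background on 1 of 4 WT arrays and was tested only because of its KO signal; over the 11 genes above background on all arrays, 10 were called and the median was 1.07. The number of lipogenic genes called was 8 without WT mouse 3, 8 without KO mouse 1, 8 with dim probes kept and 8 by the unpaired t test. It was 12 after normexp and without KO mouse 4.

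**Figure D5:**
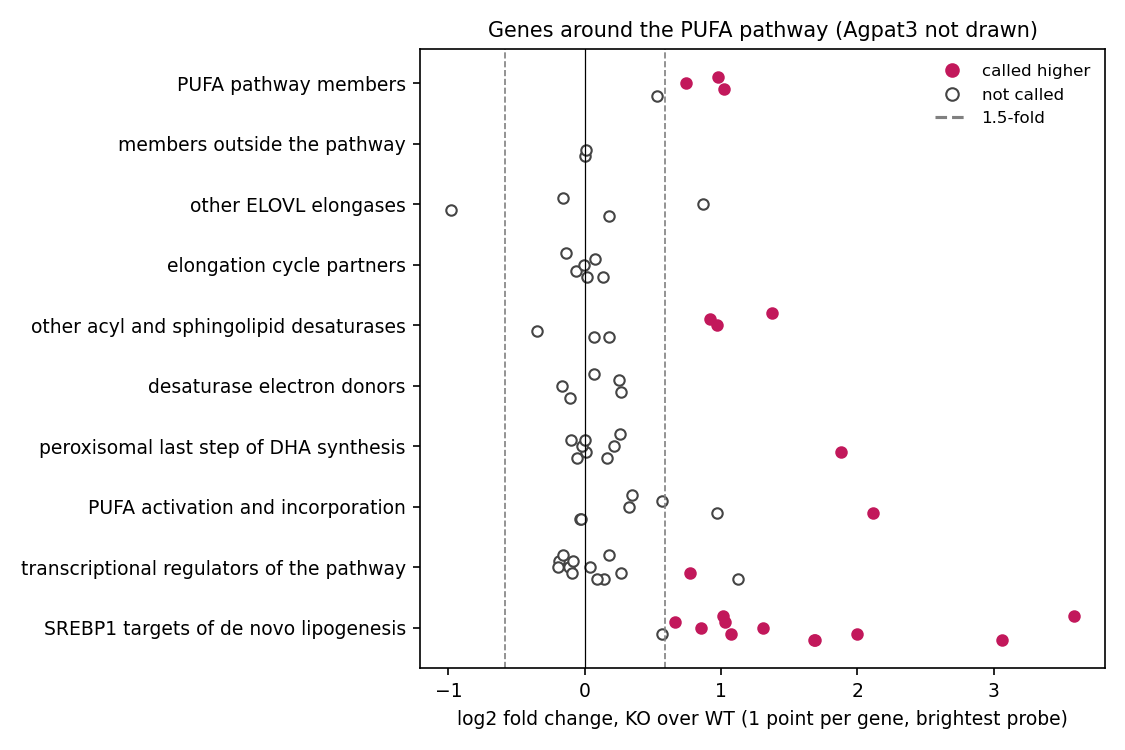
Log2 fold change of KO over WT (x axis, 1 point per gene from its brightest probe, dashed lines at 1.5-fold) for lists of genes around the PUFA pathway (y axis); filled points were called higher and open points were not called, and *Agpat3* is not drawn. Of 4 PUFA pathway genes 3 were called higher, as were 11 of 12 lipogenic targets of SREBP1 (10 of 11 above background on all arrays). Of 6 partners of the elongation cycle and 5 electron donors 0 were called, which is near the share over all genes (1.01% higher, 0.754% lower).

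Over the 8 arrays, the genes most like each pathway enzyme were found by Pearson's r among 20047 named probes, as a description. The genotypes form separate groups, so r mostly follows the difference between them. For *Fads1* these were *Cxadr*, *Frk*, *Acsl5*, *Klk1b5* and *Echdc1* (r = 0.991 to 0.984). For *Fads2* they were *Pgm3* (r = 0.996), *Anks4b*, *Rarb*, *Lmod3* and *Nudcd2*. For *Elovl5* they were *Acad9* (r = 0.991), *Farsb*, *Gimap8*, *Klk1b4* and *Klk1b26*, and for *Elovl2* *Acacb* (r = 0.976), *Ccdc69*, *Ddn*, *B130034C11Rik* and *Htatsf1*. Of these 20 genes, 9 were called higher and 0 lower, against 1.01% and 0.754% of all genes. They were picked by r with genes that were higher in KO, so this direction follows from the selection. *Acsl5*, an acyl-CoA synthetase, changed by 0.56 ± 0.09 (SE; adjusted p = 0.0492), which is under 1.5-fold, and *Acacb*, an acetyl-CoA carboxylase, by 1.31 ± 0.14 (adjusted p = 0.0131). The *Klk1b* genes are near-identical copies, and their probes cannot be assigned with certainty.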

How the data were processed

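The authors deposited, per the file headers, the scanner output of Agilent Feature Extraction 10.7.1.1 for 8 one-color arrays, in which the processed signal of a spot is a background-corrected fluorescence intensity on a linear scale. They also deposited 1 table of log2 values (array medians between -3.54 and -3.44), which equals log2 of this intensity minus the 75th percentile of the array within 0.05 for nearly all values. The exact test behind the 1.5-fold and 0.2 thresholds of the study is not given in the sources used here.

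Control and outlier spots were left out, spots of a probe were averaged, and log2 signals were set relative to the 75th percentile. A probe was tested if its signal was well above background in every liver of one genotype or both (29069 of 56605). Genotypes were compared with limma 3.58.1 in R 4.3.3 (lmFit, eBayes, two-sided, Benjamini-Hochberg). Intervals of single genes use its moderated degrees of freedom. Groups came from the genotype in the labels. The brightest probe stands for a gene. Symbols came from RefSeq GRCm38.p6 through transcript accessions, and 32994 probes had one. P-values of a change weigh the difference between genotypes against the spread between these mice within a genotype. They cannot separate the genotype from the row of the slide.

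The members, lists and tests were chosen with earlier results of these data known. Named were all members, called genes of a list or else its largest change, up to 4 a list, neighbors of the *Fads* cluster and the 5 genes most like each pathway gene; other genes named from a list were chosen after their values were seen. Alternatives were normexp (offset 50, on the median spot signal), quantile or median scaling, use of the log2 table, other filters and thresholds, outlier spots kept, eBayes with trend and robust, a replicate block, an unpaired t test, averaged probes, and each array left out. Data were simulated for this comparison over 29069 probes, 200 of them changed. At log2 changes of 0.5, 1 and 1.5, 8%, 80.5% and 93% of the changed probes were recovered. A log2 change of 0.5 lies under the 1.5-fold threshold, which limits the share recovered there. Of 31, 176 and 202 probes called at these changes, 15, 15 and 16 were false calls. Precision depends on the number of arrays, the spread between mice and, for dim probes, the background.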

Additional observations from a re-analysis of the deposited data

Results flagged for a closer look

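Among 86 groups of 4 mice examined over the members and lists, 2 had 1 mouse far from the other 3, which chance gives in about 1 of 20 groups. *Fads3* was highest in KO mouse 2, at -0.28, against -0.60 to -0.56 in the remaining KO livers. *Lep*, an adipocyte marker, was lowest in KO mouse 3, at -0.85, against -0.71 to -0.69 in the remaining KO livers.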

How the results depend on the processing

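The changes of the 6 members tested kept their side of the threshold under all 11 processing alternatives and without any single mouse, at 0.71 to 0.76 and 0.66 to 0.79 for *Fads1*, 0.94 to 1.02 and 0.91 to 1.05 for *Fads2*, 0.98 to 1.02 and 0.92 to 1.12 for *Elovl5*, and 0.49 to 0.54 and 0.50 to 0.58 for *Elovl2*, while *Fads3* (-0.04 to 0.07) and *Fads6* (-0.03 to 0.03) took either sign. The second probes of *Fads1* and *Elovl5* were not called without a filter on dim probes (adjusted p = 0.201 and 0.232), where more probes were tested. A minimum fold of 2 left 1 of 4 pathway genes called. After quantile normalization the differences of change were 0.758 and 0.737 for *Fads1* against *Fads3* and *Fads6* and 0.985 and 0.964 for *Fads2* against both (exact permutation test, adjusted p = 0.0571), since 5 instead of 6 pairs had the smallest p. Without any 1 mouse they were 0.64 to 0.85, 0.64 to 0.80, 0.89 to 1.03 and 0.89 to 1.04, where no p under 0.0571 is possible.

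Over the array, 273 probes were called higher and 211 lower. These counts were 181 and 65 after normexp, 122 and 131 with no filter, 165 and 104 by the unpaired t test, 557 and 645 with no minimum fold, 100 and 60 at a fold over 2, and 82 and 35 at an adjusted p under 0.05; only probes above background on all 8 arrays gave 126 lower, and leaving out a mouse 152 to 334 higher and 105 to 311 lower. The cause of these moves was not tested beyond the changed thresholds and filters.

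Mice with the same number deviated from their genotype means at r = 0.33, -0.11, 0.10 and 0.32 and share the slide column besides the number; as the value for mice 2 was below 0.1, they were not taken as pairs, although WT mice 1, 3 and 4 correlated best with their own number. With the replicate block, the members kept their calls (adjusted p = 0.0808 for *Fads1*, 0.0433 for *Fads2*, 0.0950 for *Elovl5*, 0.0783 for *Elovl2*), *Elovl6* was called higher (adjusted p = 0.113) and *Elovl3* lower (adjusted p = 0.153). Low signal limited *Elovl4*, on no array well above background, and *Best1*, above it on 1 array, and normexp, which shrinks dim signals, lowered the change of the second probes to 0.59 for *Fads1*, 0.95 for *Fads2* and 0.69 for *Elovl5*.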
